A study of Mus musculus with 6 samples.

Results

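Retained-intron-like exonic parts are stretches of annotated exon that fill the gap between 2 directly adjoining exonic parts and are listed in fewer transcripts than either of them. An exonic part is the piece of exon between 2 consecutive annotated exon edges of a gene. The members were chosen from the annotation columns alone, with no read count: the part had to belong to a single gene (not one of 908 identifiers that join overlapping genes), to adjoin another part of that gene on both sides, and to be listed in fewer transcripts than each neighbour. This gave 10648 members in 5534 genes, out of 282971 parts of single genes with a part on each side and 368092 parts in all. Another 45042 parts adjoined on both sides without meeting the transcript rule and served as the closest comparison.

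Introns are normally cut out of a transcript by the spliceosome, which recognises GT at the intron's first bases and AG at its last. An intron left in a polyadenylated transcript is called retained, and where such transcripts wait in the nucleus for late splicing it is called detained. Introns of this kind are common in genes of splicing factors and of the CLK kinases that phosphorylate them, and a retained intron in the coding part often brings a premature stop codon that marks the transcript for nonsense-mediated decay. CD2BP2 binds, through its GYF domain, to the U5 particle of the spliceosome, which holds the exon ends during splicing.

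Polyadenylated RNA was measured in 3 libraries labelled WT Control (genotype Wildtype) and 3 labelled KO (genotype CD2BP2 Knockout), all labelled Podocytes, the epithelial cells of the kidney filter, on a C57BL/6 background. The floxed allele was made in R1/E embryonic stem cells with a loxP site downstream of exon 3 of 7, and the neomycin cassette was removed with a FLPO deleter strain. The only Cre line the labels name is MxCre, in mice of 6 to 10 weeks given 300 µg poly(I:C), in a text on bone marrow macrophages; no podocyte Cre, podocyte isolation or age is given, nor whether each library stands for its own animal, and p-values reflect library-to-library spread that could be purely technical. Cd2bp2 stood at 60.8, 61.8 and 60.8 CPM (counts scaled to library size) in WT1 to WT3 and at 48.4, 47.3 and 51.1 CPM in KO1 to KO3. The gene's summed count was thus lower but not lost (log2 change -0.32, edgeR adjusted p = 0.0297). This value sums all parts of the gene, so it cannot tell the parts of the deleted segment from the others. The libraries held 186022084 to 255554573 part counts each. Summed markers of podocytes stood at 21134 to 26233 CPM, of endothelium at 5989 to 6990 CPM and of macrophages at 96.0 to 205 CPM, so the libraries held podocyte RNA with RNA of other glomerular cells and did not match the macrophage text. These levels differed by genotype. Podocyte markers (11 of 12 found) stood at 23271 to 26233 CPM in WT and 21134 to 23032 CPM in KO, with only 1 called lower in KO. Macrophage markers stood at 96.0 to 127 CPM in WT and 188 to 205 CPM in KO, with 4 of 10 called higher in KO. Of all genes 3.37% were called in either direction (edgeR adjusted p under 0.05). The part of these marker levels in the differences described here was not tested. In such bulk samples fewer cells of a type and less RNA per cell cannot be told apart.

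The label was checked first. In 7506 of the 10648 members the neighbours share a transcript that lacks the part, so that the part coincides exactly with an annotated intron. Of the 6318 of these whose sequence was found in the reference transcripts, 75.2% began with GT and ended with AG when read in the direction of the transcript. The share was 94.6% at 71 to 100 bases, 93.0% above that up to 1000 bases and 95.5% above 1000 bases, but 39.0% at 21 to 70 bases and 0.363% at 20 bases or fewer. Another 106 had GC and AG at their ends and 6 had AT and AC, the ends of some introns removed by the minor spliceosome. Of 2861 members that do not match an annotated intron, 8.98% had GT and AG. The reference annotation typed 10275 members by their transcripts: 49.8% lay in a transcript of the type retained_intron, 47.3% in a protein_coding one, 11.3% in a processed_transcript and 6.81% in one marked for nonsense-mediated decay. The rule therefore gathers 2 kinds of part. The 5009 members with GT and AG at their ends are called GT-AG members here. Of these, 4752 match an annotated intron and bear out the label; 257 match none, and 29 have 20 bases or fewer. Apart from the 106 with GC and AG and the 6 with AT and AC, the other members go against the label or could not be checked. In all, 2039 members have 20 bases or fewer, 545 of them a single base, which is the size of a shifted exon edge.

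The ends of 7 members named in the results are shown because they carry the splice signals by which the label was checked; none is shown for Aifm3 part 28, whose ends were not checked. They are GENCODE M21 transcript sequences matched by transcript identifier and length, 5′ to 3′, with the first 2 and last 2 bases of the part in capitals; coordinates are those of the files, build NCBIM37, all on the + strand except Mmp23. Parts of up to 100 bases are whole, and of longer ones the first 30 and last 50 bases are given.
Rhpn1 part 18, chr15:75542329-75542686, first bases: GTgagacatcccaggcagggccctgggcta
Rhpn1 part 18, last bases: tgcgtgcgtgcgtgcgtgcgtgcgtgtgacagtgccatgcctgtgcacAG
Rhpn1 part 11, chr15:75541010-75541095: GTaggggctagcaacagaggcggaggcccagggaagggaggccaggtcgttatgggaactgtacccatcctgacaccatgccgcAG
Rhpn1 part 24, chr15:75543796-75543879: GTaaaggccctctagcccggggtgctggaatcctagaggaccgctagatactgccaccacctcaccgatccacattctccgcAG
Clic3 part 8, chr2:25313291-25313368: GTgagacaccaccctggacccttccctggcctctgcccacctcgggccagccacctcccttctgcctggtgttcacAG
Mmp23 part 13, chr4:155026471-155026557, - strand: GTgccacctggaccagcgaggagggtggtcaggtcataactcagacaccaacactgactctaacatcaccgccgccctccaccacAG
Zranb2 part 16, chr3:157204834-157206121, first bases: GTaaacgggtgcaggccaagggtaacacca
Zranb2 part 16, last bases: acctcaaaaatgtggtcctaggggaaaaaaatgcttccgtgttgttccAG
Nphs1 part 32, chr7:31266686-31266759: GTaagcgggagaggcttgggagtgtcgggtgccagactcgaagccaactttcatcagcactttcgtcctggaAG
All 7 of these members begin with GT and end with AG.

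At the edge of the rule, 7070 members were listed in just 1 transcript fewer than their lower neighbour. The 5008 of them that were tested had a median level of 82.9% in WT, and the 2601 tested members short of 2 or more transcripts 5.81%. Just outside, 24 tested parts with as many transcripts as their lower neighbour stood at 112%. Tested GT-AG members listed in 1 transcript stood at 6.11% in WT, those in 2 at 16% and those in 3 or more at 58.7%. These values are grouped by the field that the rule used and are a description only.

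The members ranged from 1 to 8856 bases in length (quartiles 47, 124 and 348 bases). They numbered 1 in each of 3137 genes and up to 15 in a gene, and 7023 lay in a single transcript. In 725 members no library had a count, and the members together took 2.24%, 2.28% and 2.26% of part counts in WT1 to WT3 and 2.30%, 2.07% and 2.32% in KO1 to KO3. The KO2 share was the lowest of the 6, and the other KO shares were above all 3 WT shares. A mean of at least 10 counts over the 6 libraries in the part and in each neighbour was reached by 7609 members in 3982 genes. Of the 3039 others, 2688 were too low themselves and 351 only had a low neighbour. Among those tested, 150 had a WT mean under 10 and 23 a KO mean under 10, so a few passed only through the group where they were higher. The tested members were nearly fully covered by reads, with 98.4% to 99.3% of their bases covered on average in each library.

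How much of each part stayed in the RNA was described by its level, which is the count per base of the part as a percentage of the count per base of its 2 neighbours together. The 3557 tested GT-AG members had a median level of 8.28%, 7.95% and 8.13% in WT1 to WT3 and of 8.49%, 7.04% and 9.05% in KO1 to KO3. The WT libraries thus lay within those of KO, with means of 8.12% ± 0.163 (WT) and 8.19% ± 1.04 (KO), each the SD of 3 libraries. The 2361 tested members that match no annotated intron stood far higher, at a median of 67.5% in WT and 67.3% in KO, and the 25788 tested adjoining non-members at 161% and 162%. Reads that cross a part's edge count for it whatever its length, so very short parts are inflated: tested members of 20 bases or fewer had a median level of 1737% in WT and 1742% in KO. Over all 7609 tested members the median level came to 35.2% ± 0.468 for the WT libraries and to 35.0% ± 1.93 for those of KO (SD, n = 3 each).

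**Figure D1:**
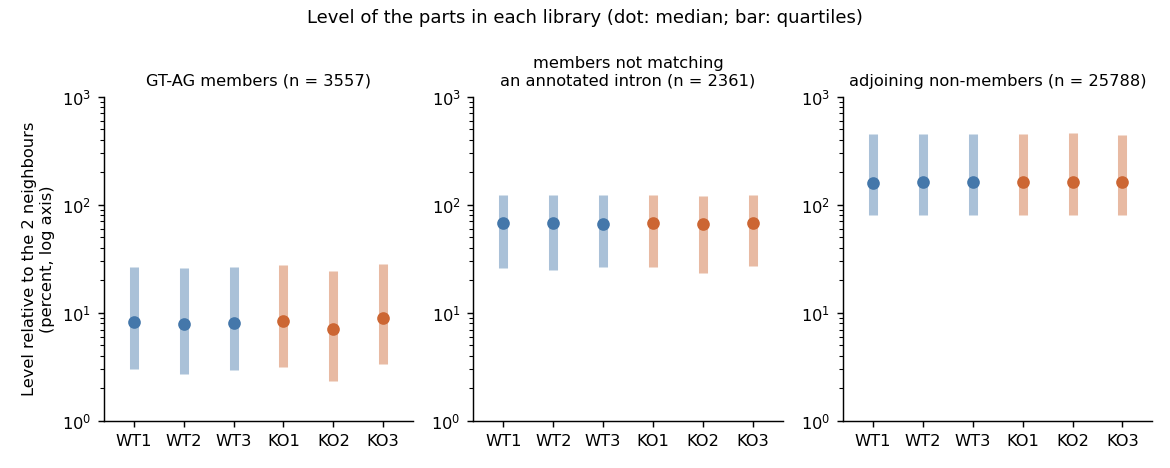
Level of the parts, in percent of the count per base of both neighbours on a log axis, in each library, for GT-AG members, for members that match no annotated intron and for adjoining non-members; dots are medians over parts and bars the quartiles. The GT-AG members stand lowest, near 8%, and their KO2 median of 7.04% is the lowest of the 6 libraries.

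Among the tested GT-AG members the level varied with features that the rule did not use. It was lower in longer members, from 11.8% in WT at 21 to 100 bases through 9.01% above that up to 300 and 7.0% up to 1000 bases to 3.59% above 1000 bases. It was higher with more GC, from 5.61% in the lowest quartile (up to 44.8% GC) to 11.7% in the highest (above 57.9%); the short members were also the GC-rich ones, with a median GC of 57.3% at 21 to 100 bases and 44.1% above 1000 bases, and the 2 features were not separated. Reads that cross a part's edge raise the count per base more in shorter parts, and this was not separated from the trend with length. The 537 last introns of their transcripts stood at 21.2% and the 381 first introns at 18.7%, against 5.51% for 2371 internal introns. Members that begin with GTAAGT or GTGAGT in the direction of the transcript (783, or 22.0%) had a WT median of 5.95%, and those with another start 9.01%. The KO medians were 12.0%, 9.16%, 6.87% and 3.47% by length, 21.3% for last, 17.3% for first and 5.47% for internal introns, each within 1 KO SD of WT. Those only in retained_intron transcripts stood at 5.33% in WT and those only in protein_coding ones at 43.7%. By abundance, 8.35% of the GT-AG members stood under 1% of their neighbours, 45.9% at 1 to 10%, 30.4% at 10 to 50% and 15.3% at 50% or more.

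**Figure D2:**
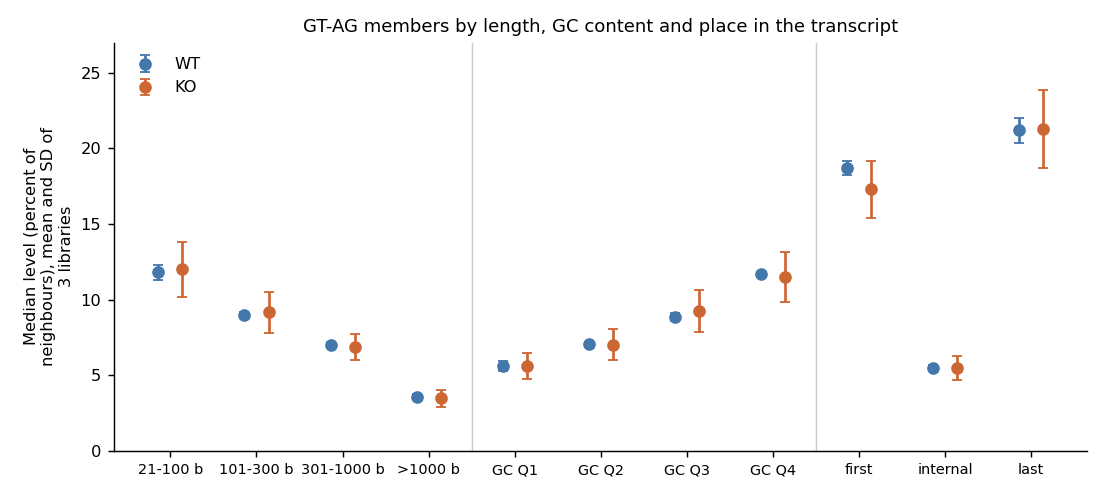
Median level of the tested GT-AG members, in percent of the neighbours' count per base, by length in bases (b), by quartile of GC content and by place in the transcript; points are the means of 3 libraries and bars their SD. The WT level goes from 11.8% in the shortest class to 3.59% in the longest, and the KO points overlap the WT points in every class.

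The highest levels were above those of the neighbours. Among members of at least 80 bases with a mean count of at least 100, Acat3 part 3 (577% in WT, overlapping another gene), Vamp5 part 2 (482%), Aplf part 2 (447%), Zpr1 part 29 (441%), D030055H07Rik part 9 (341%, overlapping another gene), Snrnp70 part 3 (335%), Gm14399 part 3 (262%) and Wdr20 part 6 (255%) exceeded their own neighbours. Of these 8, 6 match an annotated intron, all but those of Acat3 and Zpr1. A sequence was matched for 4, of which that of D030055H07Rik had GT and AG at its ends and those of Acat3, Zpr1 and Gm14399 did not. None of these 8 passed the test between KO and WT; Snrnp70, which encodes the U1 70K protein, stood at 335% ± 2.12 (WT) and 332% ± 2.75 (KO), each the SD of 3 libraries.

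The main question was whether these parts differed between KO and WT relative to their neighbours. The count of each part was tested with the summed count of its 2 neighbours as offset (edgeR quasi-likelihood test, Benjamini-Hochberg adjustment over all 168254 internal parts tested), so that a change in the expression of the whole gene cancels. Of 7609 tested members 2 passed at an adjusted p under 0.05: parts that match an annotated intron of Rhpn1 and of Aifm3, of which the first rose and the second fell. Across all parts 34 passed, or 0.0202%, with 14 higher (0.00832%) and 20 lower (0.0119%) in KO; of adjoining non-members 8 of 25788 passed (0.031%). At an unadjusted p under 0.05 there were 667 members (8.77%), 315 higher and 352 lower, against 4.95% of all parts and 5.28% of adjoining non-members. For GT-AG members the number was 454 of 3557 (12.8%), 243 higher and 211 lower. Their share was thus above the background in both directions, while the median log2 change was -0.0026 in GT-AG members, -0.0032 in all tested members and 0.0006 in all parts.

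The spread of the change was also wider in the members. The median size of the log2 change was 0.0924 in members and 0.17 in GT-AG members, against 0.0455 in all parts, beside a median SE of 0.13, 0.18 and 0.0626. Members also had fewer counts, with a median mean count of 122 (81.8 for GT-AG members) against 322 in all parts. The log2 change reached 1 in size in 46 members; the largest were 2.83 (SE 0.58) for Aipl1 part 3, 2.81 (SE 0.36) for Bmpr1a part 3 and -1.98 (SE 0.36) for Pde4d part 34, none of which passed (edgeR adjusted p = 0.452, 0.140 and 0.359; these 3 were chosen after their values were seen). Ratios of part to neighbours did not overlap between the 3 KO and 3 WT libraries in 910 members (12.0%) and 475 GT-AG members (13.4%), against 10.9% of all parts. DESeq2 on the same ratios called 58 members, 33 higher and 25 lower, against 0.314% of all parts, and diffSpliceDGE, which sets a part against the other parts of its gene, called 12 members, 9 higher and 3 lower, against 0.0445% of all parts. Among those 12 were Aifm3 part 28 (adjusted p = 3.18e-06), Clic3 part 8 (1.83e-06), Zranb2 part 16 (0.0336), Bmpr1a part 3 (0.00346) and Pde4d part 34 (0.0414), by diffSpliceDGE, but not Rhpn1 part 18.

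**Figure D3:**
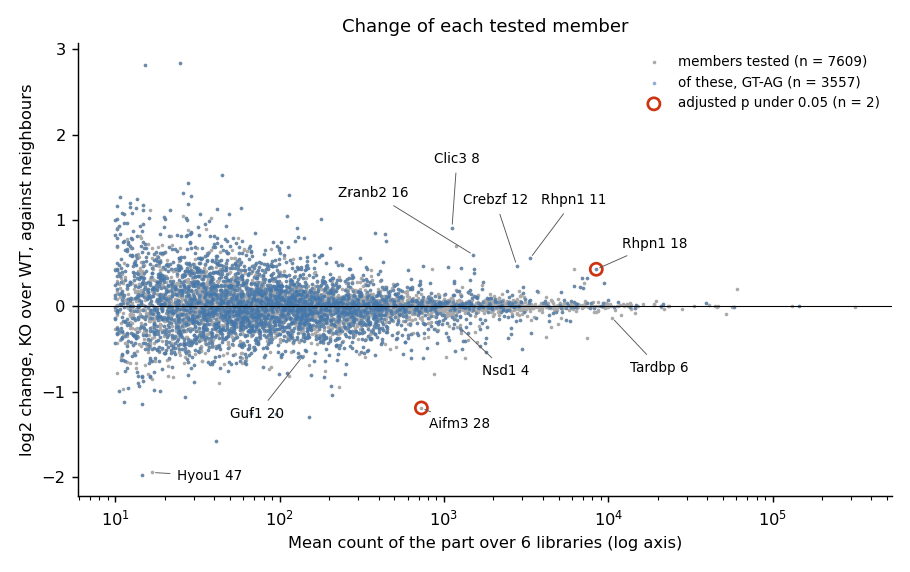
Change of each of 7609 tested members, as log2 of KO over WT relative to the neighbours, against the mean count of the part over 6 libraries on a log axis; GT-AG members are blue and the 2 members past the test are circled. Changes scatter on both sides of 0 and narrow with the count, and Rhpn1 part 18 and Aifm3 part 28 lie at the edge.

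Rhpn1, which encodes rhophilin 1, had the member that rose. Part 18 (gene ENSMUSG00000022580, chromosome 15, 75542329 to 75542686, NCBIM37) is the 358-base intron 10 of 14, within the coding part, and is listed only in transcripts of the type retained_intron. Its counts were 6059, 5531 and 8751 in WT1 to WT3 and 11266, 6986 and 12131 in KO1 to KO3. Its level was 18.4%, 17.6% and 18% in WT and 24.7%, 23.1% and 24.8% in KO, so that every KO library lay above every WT library. The log2 change was 0.43 (SE 0.031, edgeR adjusted p = 0.0268). It had the same direction in all 23 alternatives, but passed in only 1 of the 6 fits that left out a library, the one without KO2 (edgeR adjusted p = 0.0154 there and 0.0729 to 0.18 in the others). With no overlap between the groups, the fits that left out a library could not change direction.

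The other 2 Rhpn1 members differed from each other. Part 11, the 86-base intron 6, stood at 45.9%, 52.7% and 52.1% in WT and 71.4%, 70.8% and 79.0% in KO, with no overlap, at a log2 change of 0.55 (SE 0.063) and an edgeR adjusted p of 0.102. Part 24, the 84-base intron 13, stood at 13.8%, 17.5% and 15.8% in WT and 17.2%, 15.3% and 19.8% in KO, which overlap (log2 change 0.16, edgeR adjusted p = 1). In CPM the 2 higher introns ran against the rest of the gene: mean CPM changed by 0.43 (part 11), 0.31 (part 18) and 0.05 (part 24) on the log2 scale, while each of the 26 other parts lay between -0.23 and -0.08. The gene as a whole changed by -0.11 on the log2 scale, from 973 to 906 CPM (edgeR adjusted p = 0.719).

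Aifm3, a member of the apoptosis-inducing factor family of mitochondrial proteins, had the member that fell. Part 28 (gene ENSMUSG00000022763, chromosome 16, 17503855 to 17505010, NCBIM37) is the 1156-base intron 17 of 21 and is listed in 1 transcript, against 6 and 5 for its neighbours. It had 915, 862 and 989 counts in WT1 to WT3 and 659, 451 and 498 in KO1 to KO3, or 11.9%, 9.79% and 12.1% of its neighbours in WT and 4.94%, 4.59% and 5.27% in KO. The groups did not overlap (log2 change -1.19, SE 0.091, edgeR adjusted p = 0.0283). The direction was the same in all 22 alternatives that gave a value, and of the 6 fits without a library only that without WT2 passed (edgeR adjusted p = 0.0335 there and 0.0685 to 0.2 in the others). Here too the lack of overlap fixed the direction of the fits without a library.

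Lower counts in Aifm3 were not limited to the member. Further toward the 3′ end parts 30, 32 and 34, which are not members, changed by -1.23, -0.84 and -1.24 in mean CPM on the log2 scale, while the parts between them (29, 31, 33 and 35) lay at 0.09 to 0.25. Parts 28 and 30 are listed in the same transcript and in no other. The other members in annotated introns of Aifm3 did not pass the test: part 12 stood at 25.3% in WT and 19.9% in KO (log2 change -0.36, edgeR unadjusted p = 0.0828) and part 20 at 12.2% and 13.5% (0.14, 0.617). The gene as a whole was level, at 77.6 and 77.4 CPM (log2 change -0.01, edgeR adjusted p = 0.985).

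**Figure D4:**
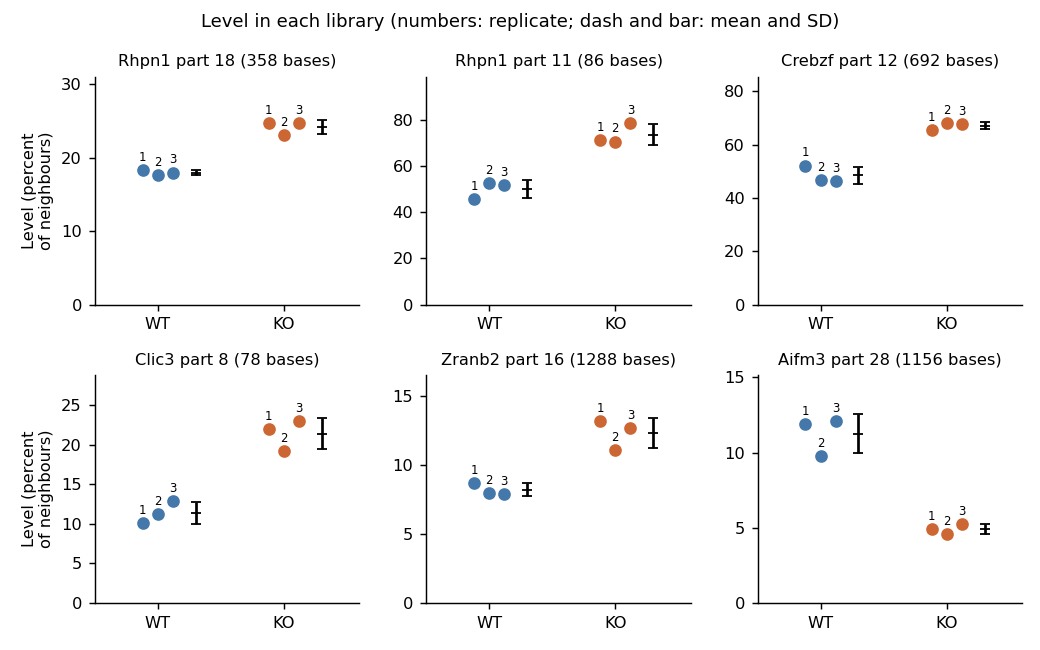
Level of 6 members in each library, in percent of the neighbours' count per base; points are libraries, numbered by replicate, and dashes with bars are the mean and SD of 3 libraries. KO and WT do not overlap in any of the 6, and Aifm3 part 28 is the only one lower in KO.

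Rhpn1 part 18 and Aifm3 part 28 were the only 2 to pass, and the members with the next smallest p were the following. Crebzf encodes a basic leucine zipper cofactor; its part 12, of 692 bases, stood at 52.2%, 46.8% and 46.5% in WT and 65.7%, 68.3% and 67.6% in KO (log2 change 0.47, SE 0.046, edgeR adjusted p = 0.0626). Clic3 encodes a chloride intracellular channel protein; its part 8, the 78-base intron 2 of 6, stood at 10.1%, 11.2% and 12.9% in WT and 22.0%, 19.2% and 23.0% in KO (log2 change 0.91, SE 0.096, edgeR adjusted p = 0.085). Zranb2 encodes a zinc finger splicing protein; its part 16, of 1288 bases, stood at 8.73%, 8.00% and 7.87% in WT and 13.2%, 11.1% and 12.7% in KO (log2 change 0.60, SE 0.071, edgeR adjusted p = 0.119). In these 3 every KO library was above every WT library, and the host genes changed by 0.03, -0.41 and -0.01 on the log2 scale, none past the gene test (3.37% of 19742 genes passed it).

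On the lower side, Tardbp, which encodes the RNA-binding protein TDP-43, had part 6 at 87.0% in WT and 79.2% in KO (log2 change -0.13, edgeR adjusted p = 0.119). It matches no annotated intron and has TT, not GT, at its start. Guf1 part 20 stood at 47.8% and 31.6% (edgeR adjusted p = 0.14) and Nsd1 part 4, in the gene of a histone methyltransferase, at 26.6% and 22.3% (edgeR adjusted p = 0.209). The Guf1 part matches no annotated intron either. It changed by -0.02 against its previous part and by -0.68 against its next one. Hyou1 part 47, in the gene of an endoplasmic reticulum chaperone, had 26 counts in each WT library and 9, 9 and 4 in KO, at a log2 change of -1.94 (edgeR adjusted p = 0.212). Its KO counts were all under 10, so it passed the filter only through its WT counts. This part also matches no annotated intron and has GG at its start. It changed by -0.5 against its previous part and by -1.97 against its next one.

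Crebzf showed how the neighbour ratio can understate a change. Parts 8 to 12 changed together by 0.51 to 0.60 in mean CPM on the log2 scale, while parts 2 to 7 lay at -0.20 to 0.00 and parts 13 to 16 at -0.25 to -0.06. Parts 8, 10 and 12 are members and parts 9 and 11 lie between them, so a member is set against neighbours that are higher too. Part 8 changed by 0.54 against its previous part and by -0.06 against its next one, and by 0.19 against both (edgeR adjusted p = 0.354). Part 12 changed by -0.08 against the previous part and by 0.57 against the next. The block was noticed in the values and was not tested as a block.

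**Figure D5:**
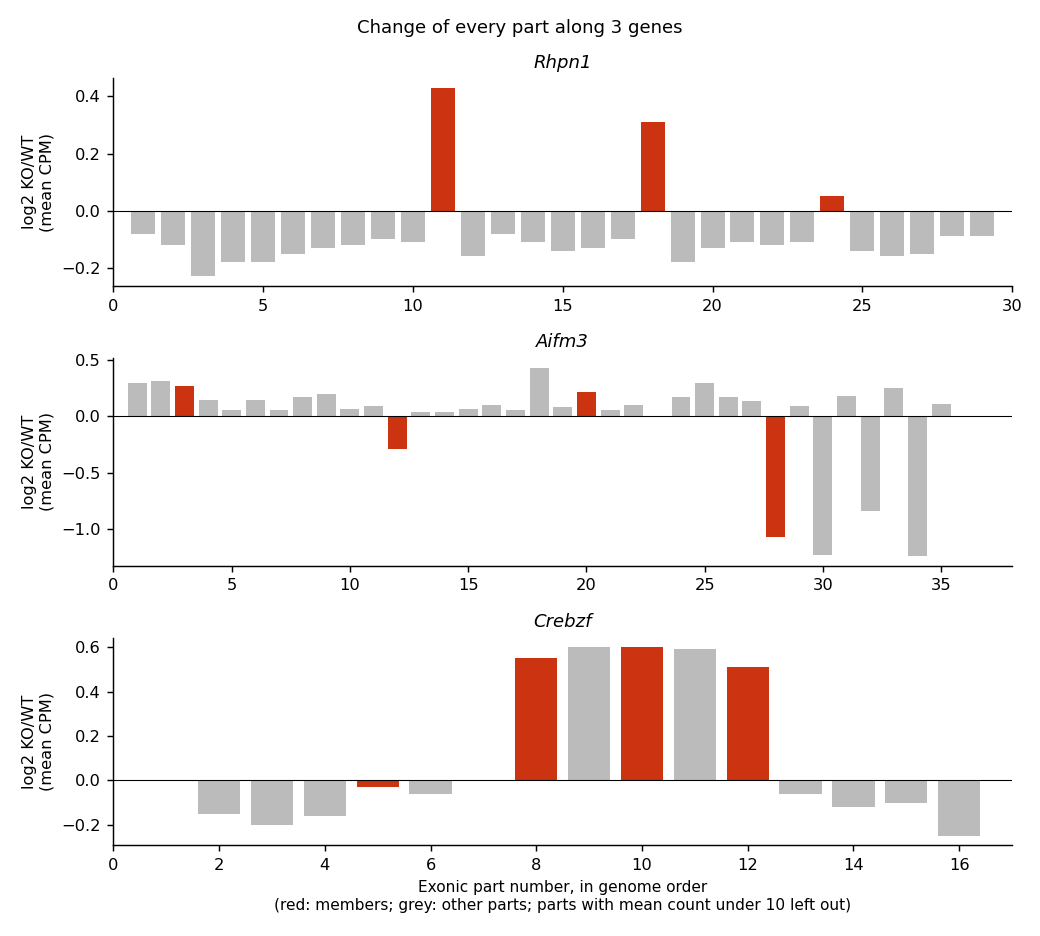
Change in mean CPM, as log2 of KO over WT, of every part with a mean count of at least 10 along Rhpn1, Aifm3 and Crebzf, by part number in genome order; red bars are members and grey bars other parts. Rhpn1 parts 11 and 18 stand at 0.43 and 0.31 while the other parts outside the members lie below 0, Aifm3 parts 28, 30, 32 and 34 lie below 0, and Crebzf parts 8 to 12 form a block above 0.

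Splicing genes, in which retained introns are well known, were described by list. None of their members passed edgeR's test, while DESeq2 called Srsf5 part 26, Ewsr1 part 19, Tardbp part 6 and Pnisr part 30, and diffSpliceDGE 0. In edgeR, in 26 tested members of SR protein genes, 1 was higher and 3 lower at an unadjusted p under 0.05; in 79 of hnRNP and splicing regulator genes 4 and 6; in 27 of U1, U2 and core spliceosome genes 3 and 1; in 16 of U5 and tri-snRNP genes 0 and 1; in 10 of minor spliceosome genes 0 and 0; and in 10 of nonsense-mediated decay genes 1 and 0. The share at that p was 8.77% in all tested members and 4.95% in all parts. The median log2 changes of these lists lay between -0.064 (U5 and tri-snRNP) and 0.069 (core), beside 0.0006 in all parts. Examples are Srsf5 part 16 at 71.5% in WT and 59.9% in KO (edgeR adjusted p = 0.588), Xab2 part 14 at 5.61% and 9.39% (0.528), Ddx23 part 20, in the gene of a U5 helicase, at 2.50% and 1.97% (1) and Lsm2 part 17 at 6.5% and 4.13% (0.962). Of these, Srsf5 part 16 matches no annotated intron and has TA, not GT, at its start. In the 20 genes listed for retained or detained introns, 63 members were tested, of which 8 were higher and 6 lower at that p, with a median of 0.007.

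The CLK and SRPK kinases, which phosphorylate SR proteins, had the highest share of the 16 lists at an unadjusted p under 0.05, 42.9%: 5 higher and 1 lower of 14 tested members, with a median log2 change of 0.14 and 0 members past the adjusted test in edgeR, DESeq2 or diffSpliceDGE. Of the 14, 11 are GT-AG members, and the share at that p was 12.8% in all GT-AG members, 8.77% in all tested members and 4.95% in all parts. The members of this list lie in only 5 genes, and 6 of those tested are in Clk1, of which 3 reached that p. Members of the same gene are not independent of each other, so the share is a description only. Clk1 part 30, the 871-base intron 3 of 12 and a textbook detained intron, stood at 21%, 17.2% and 19.8% in WT and 21.8%, 22.7% and 22.3% in KO. The groups did not overlap, by a small gap (log2 change 0.21, SE 0.066, edgeR adjusted p = 0.818). Part 28, intron 4, stood at 14.7% and 16.6% (0.18, 0.927) and Clk2 part 13 at 15.4% and 18.5% (0.27, 0.647), in that order log2 change and edgeR adjusted p. Clk1 as a gene stood at 505 CPM in WT and 408 in KO (log2 change -0.31, edgeR adjusted p = 0.0901).

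Podocyte and stress genes gave few tested members. Of 13 in the slit diaphragm and podocyte list 3 were higher and 0 lower at an unadjusted p under 0.05, among them Rhpn1 part 11 and the Rhpn1 part 18 that passed. That p was reached by 23.1% of this list and 30.0% of the p53 list, against 8.77% of all tested members and 4.95% of all parts. These shares too rest partly on members of the same gene, Rhpn1 or Trp53, which are not independent of each other. In Nphs1, which encodes nephrin, part 32 (intron 25 of 29) stood at 7.65%, 7.98% and 7.46% in WT and 11.4%, 7.18% and 12.5% in KO. KO2 was the lowest of the 6 libraries there, so the groups overlap (log2 change 0.44, edgeR adjusted p = 0.993). The p53 list had 3 higher and 0 lower of 10, including Trp53 part 7 at 6.83% in WT and 9.68% in KO (log2 change 0.51, edgeR adjusted p = 0.499) and part 13 at 2.64% and 4.11% (0.65, 0.567), of which DESeq2 called part 7; Trp53 itself rose by 0.55 as a gene (edgeR adjusted p = 0.0297).

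The remaining lists held 0 members past the edgeR test, while DESeq2 called both Cxcl12 members and diffSpliceDGE called Tpm1 part 7. The actin list had 0 higher and 4 lower of 26 at an unadjusted p under 0.05, with Tpm1 part 7 at 6.79% in WT and 4.47% in KO. Of all tested members 8.77% reached that p, and of all parts 4.95%. Tpm1 part 7 matches no annotated intron and has AA, not GT, at its start. Basement membrane and integrin adhesion had 1 and 3 of 24, with Ilk part 14, which overlaps another gene, at 4.90% and 3.59%. The NF-kB list had 0 and 2 of 17, both in Cxcl12 (part 7 at 32.8% and 18.9%, part 9 at 45% and 38.9%), and neither matches an intron. Heat shock had 2 and 1 of 20, injury and fibrosis 1 and 1 of 19, and VEGF and angiopoietin signalling 0 and 1 of 6. Vegfa had 1 tested member, of 2 bases, at a log2 change of 0.04, and Cd2bp2 and Clk4 had none.

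Several members of a gene could be compared in 1700 genes with at least 2 tested members. In 81 of these (4.76%) at least 2 members, and in 17 at least 3, had an unadjusted p under 0.05. Among 4293 genes with at least 2 tested adjoining non-members, with a median of 4 such parts against 3 members, the number was 228 (5.31%), so the count over all members is near the background. For GT-AG members alone it was 54 of 774 genes (6.98%), with a median of 2 such members per gene. Mmp23, which encodes a matrix metalloproteinase, had all 3 of its members higher, at log2 changes of 0.45 (part 3), 0.44 (part 7) and 0.47 (part 13). Part 13 stood at 21%, 21% and 19.5% in WT and 28.4%, 25.5% and 30.9% in KO (edgeR adjusted p = 0.238). In the chaperone gene Hyou1, 9 of 10 members were negative, with a median of -0.67, and in Dnase1 all 10 were, with a median of -0.55. None of these passed the test. Most of the Hyou1 members are listed only in 1 and the same transcript, so their changes are not independent of each other. Hyou1 parts 6, 45 and 47 match no annotated intron. Calr part 13, in the gene of calreticulin, had 185, 180 and 270 counts in WT and 105, 53 and 108 in KO (log2 change -1.30, edgeR adjusted p = 0.281). Part 7 of the same gene stood at 2.48%, 2.49% and 1.93% in WT and 1.16%, 0.787% and 1.93% in KO, which overlap (log2 change -0.83, edgeR adjusted p = 0.836). The chaperone genes were picked after their values were seen, and not all their members went one way: Hspa5 part 5 stood at 36.2% in WT and 43.5% in KO, and its part 23 at 6.98% and 3.41%.

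The library KO2 stood apart from the other 5 in the level of these parts. Relative to the WT mean, the median log2 shift of GT-AG members was 0.030, -0.033 and 0.006 in WT1 to WT3, and 0.039, -0.16 and 0.091 in KO1 to KO3. In KO2 1101 of 3557 GT-AG members were above the WT mean, against 2004 in KO1 and 2289 in KO3. For GT-AG members of 300 bases or more the KO2 shift was -0.20, while for adjoining non-members it was 0.007. Summed markers of later tubule segments (loop, distal tubule, collecting duct) stood at 1440 CPM in KO2 and at 182 to 535 CPM in the other 5 libraries, and those of the proximal tubule at 916 CPM against 378 to 721; all 8 markers of each list were found, none below 1 CPM. Their part in the shift was not tested.

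Both calls were recomputed with this library treated in other ways, after seeing the data. Without KO2, 3 members passed, all higher in KO, against 0.0113% of all parts: Rhpn1 part 18, Zranb2 part 16 (edgeR adjusted p = 0.0409) and Mmp23 part 3 (0.0154). The median shift of GT-AG members in each library was also removed from all members, including those without GT and AG ends or with ends not checked. With this removed, 8 members passed, 6 higher and 2 lower, against 0.0244% of all parts. These were Rhpn1 part 18 (edgeR adjusted p = 0.0491), Aifm3 part 28 (0.0139), Clic3 part 8 (0.0409), Zranb2 part 16 (0.0217), Mmp23 part 13 (0.0409), Fnbp1 part 3 (0.0428), H2-Q7 part 6 (0.0491) and, lower, Entr1 part 12 (0.0217). H2-Q7 belongs to a family of near-identical class I genes, so the division of reads among its copies is uncertain.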

How the data were processed

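The authors' deposited tables give, for each exonic part of the Ensembl 67 annotation of NCBIM37 (per the file headers), raw read counts, the number of covered bases and the covered fraction. TopHat 1.4.1 is listed in the submitters' processing notes with GRCh37, which is human and goes against the headers. Neither the counting tool nor its strand setting was given in the sources used here, so antisense reads may be included. R 4.3.3 with edgeR 4.0.16 was used for the part test (quasi-likelihood, KO against WT, no covariates, log of the neighbours' summed count + 1 as offset, mean count of at least 10 in part and neighbours). Alternatives were limma 3.58.1 (pseudocounts 0.5 and 5), DESeq2 1.42.0, diffSpliceDGE, other filters, scalings and neighbours, a replicate block and leaving out each library. Gene counts are sums over parts, so a read over several parts enters more than once. Symbols, transcript types and sequences came from GENCODE M21 by Ensembl identifier; 10546 members had a symbol and 9179 a sequence. Its coordinates, on another build, were not used.

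Tested on simulated data (168254 parts, KO against WT), the part test recovered 32.8%, 64.2% and 92.4% of members changed 1.5-, 2- and 4-fold, with 26 of 152 calls on unchanged parts. That share of false calls is above the 0.05 set for the adjusted p, so in this simulation the adjusted p was too small. Counts of replicate libraries differed by more than sampling noise (chi-square per part 8.41 to 20.4), so none was counted as a duplicate.

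Named members were the 5 with the smallest p in each direction where fewer than 5 passed, the 8 with the highest level, up to 2 per gene list with the smallest p, and members of Cd2bp2, Clk1, Clk4, Vegfa and Nphs1. The other members of Rhpn1, Aifm3, Crebzf and Clic3, and those of Mmp23, Calr, Hspa5, Hyou1, Dnase1, Pdia6, Entr1, Fnbp1, H2-Q7, Aipl1, Bmpr1a and Pde4d, were named after their values were seen. The members and lists were chosen with earlier results of these data known.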

Additional observations from a re-analysis of the deposited data

How the results depend on the processing

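The count of 2 members past the edgeR test rested on few libraries: leaving out each library in turn gave 0 to 3, with 0 without WT3 or KO1, 1 without WT1, WT2 or KO3 (Crebzf part 12, Aifm3 part 28 and Pdia6 part 12 respectively) and 3 without KO2. It became 4 with a mean count of at least 50, 0 with the geometric mean of the neighbours, 0 when only adjoining parts were fitted, 1 with GT-AG members alone (Aifm3 part 28 has no matched sequence), 8 with the library shift removed, 58 with DESeq2 and 12 with diffSpliceDGE; beyond these constructions the cause was not tested. It was 2 without the filter, with centred ratios, without parts that overlap another gene and with limma, and 3 with parts of at least 100 bases. The replicate block also gave 2 calls. Same-numbered libraries had correlations of 0.137, 0.091 and 0.110 in their deviations and others -0.105 to -0.022, so each correlated best with its own number, a hint from the data that falls short of a pairing. The median change of members lay between -0.0167 and 0.0146 in all alternatives. The median level in WT and KO was 58.2% and 58.4% with a mean count of at least 50, 13.7% and 13.3% with parts of at least 100 bases, 38.2% and 38.0% with at least 0.9 covered, 34.5% in WT without overlapping parts, 18% and 18.1% for parts matching an intron, 25% in both groups with the neighbours averaged, and 8.12% and 8.19% for GT-AG members. Both calls kept their direction wherever they had a value, which the lack of overlap between groups fixes for the fits without a library. The median change of members, -0.0032, was 0.0007 without WT1, 0.0146 without KO2 and 0.0037 with the library shift removed. In 24 of the other named results 44 values changed sign, none past a test (smallest adjusted p = 0.675), and the cause was not tested. Against the next part alone these were Pnisr part 30 (-0.05), Tpm1 part 7 (0.09), Snrnp70 part 3 (0.03), Tardbp part 6 (0.0) and Vamp5 part 2 (0.0), and against the previous part alone Cxcl12 part 9 (0.02), Crebzf part 12 (-0.08), Lsm2 part 17 (0.0) and Zpr1 part 29 (0.0). With diffSpliceDGE they were Snrnp70 part 3 (0.03), Gm14399 part 3 (0.16), Vegfa part 21 (-0.25) and Clk1 part 21 (0.39), with the geometric mean Snrnp70 part 3 (0.0), and with the library shift removed Vamp5 part 2 (0.0). Leaving out each library gave log2 changes of -0.04 to 0.04 for Vamp5 part 2, -0.09 to 0.01 for Zpr1 part 29, -0.11 to 0.08 for Wdr20 part 6, -0.08 to 0.13 for Vegfa part 21, -0.03 to 0.31 for Clk1 part 5 and -0.06 to 0.01 for Clk1 part 21. For whole genes it gave -0.06 to 0.03 (Acat3), -0.1 to 0.1 (Aifm3), -0.02 to 0.09 (Crebzf), -0.04 to 0.09 (Ewsr1), -0.15 to 0.03 (Lsm2), -0.05 to 0.1 (Mmp23), -0.25 to 0.02 (Rhpn1), -0.14 to 0.06 (Srsf5), -0.02 to 0.04 (Vamp5) and -0.05 to 0.04 (Zranb2). The members had a median SE of 0.13 and a median mean count of 122, so small changes were not detectable. What sets this SE was not tested.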
